A study of Rattus norvegicus with 10 samples.

Results

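The genes described here encode the subunits of the mitochondrial respiratory chain and the ATP synthase. They were taken as every probe set with exactly 1 gene symbol starting with Nduf, Sdha to Sdhd, Uqcr, Cox4 to Cox8 or Atp5, and a gene with several probe sets was represented by the one with the highest mean value. The rule found 55 genes of the 4736 with a single symbol, measured by 101 of 7006 such probe sets, and 52 of the 55 passed the filter on low values. Complex I, the NADH dehydrogenase, held 25 genes, complex II 1, complex III 3, complex IV, the cytochrome c oxidase, 14 and complex V, the ATP synthase, 10, while 2 genes, Ndufaf3 and Sdhaf2, encode assembly factors. Cox5a, Cox6c-ps1 and Ndufs1 did not pass the filter, which kept the upper 60% of probe sets by mean value. Their index lay between 986 and 1387, 756 and 1061, and 1076 and 1846 over the arrays. Cox6c-ps1 is annotated as a pseudogene, and Ndufa4l2 was counted in complex I by its symbol alone.

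Rat brain RNA was measured on 1-colour oligonucleotide arrays, whose values are the expression index of the program dChip, a linear intensity fitted over the probes of a probe set. There were 10 groups of 1 array each, a saline-treated and a cocaine-treated one for the amygdala (AMY), the caudate putamen (CPU), the nucleus accumbens (NA), the prefrontal cortex (PFC) and the ventral tegmental area (VTA). Cocaine blocks the reuptake of dopamine, and these regions hold the dopamine neurons or receive their axons. The sources used here do not give strain, age, dose, time or pooling of animals, so p-values measure only the spread between these 10 arrays, which may be technical in part.

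Oxidative phosphorylation passes electrons from NADH through complex I, or from succinate through complex II, to complex III and then by cytochrome c to complex IV, which reduces oxygen. Complexes I, III and IV pump protons out of the mitochondrial matrix, and complex V uses their return to make ATP. Neurons depend on this supply to restore ion gradients after firing. Nuclear genes encode most subunits, the mitochondrial genome a few, and several nuclear subunits have tissue-specific isoforms. The factors NRF1 and GABP, which holds a subunit of the ETS family, and YY1 are known to bind the promoters of many of these nuclear genes.

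Promoters of some of the genes that led the comparisons below are shown first, as examples. They are the 250 bases before the annotated start, from RefSeq on the rat build GRCr8, written 5′ to 3′ along the gene, and capitals mark matches to short cores of these factors. The cores searched on both strands were GCGCANGC for NRF1, CGGAAGT for ETS factors and AAGATGGC for YY1, and overlapping matches were counted separately.
Ndufa5, chr4:53971236-53971485, minus strand: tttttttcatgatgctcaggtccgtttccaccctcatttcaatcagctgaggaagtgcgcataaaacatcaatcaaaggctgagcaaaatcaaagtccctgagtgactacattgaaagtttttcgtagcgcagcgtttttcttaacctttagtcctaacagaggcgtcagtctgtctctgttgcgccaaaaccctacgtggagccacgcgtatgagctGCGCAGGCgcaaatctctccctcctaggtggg
Ndufa6, chr7:115750318-115750567, minus strand: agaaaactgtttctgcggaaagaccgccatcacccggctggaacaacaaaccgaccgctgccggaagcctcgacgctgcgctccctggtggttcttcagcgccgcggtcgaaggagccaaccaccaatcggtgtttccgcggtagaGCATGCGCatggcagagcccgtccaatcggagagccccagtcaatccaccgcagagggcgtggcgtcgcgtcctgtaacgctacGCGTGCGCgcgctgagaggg
Ndufab1, chr1:186089337-186089586, minus strand: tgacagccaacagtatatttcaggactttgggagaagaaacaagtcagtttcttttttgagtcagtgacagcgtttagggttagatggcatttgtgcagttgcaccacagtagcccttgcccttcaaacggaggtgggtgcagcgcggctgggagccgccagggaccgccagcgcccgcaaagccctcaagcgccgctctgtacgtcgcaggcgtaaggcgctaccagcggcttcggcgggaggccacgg
Cox5b, chr9:46417587-46417836, plus strand: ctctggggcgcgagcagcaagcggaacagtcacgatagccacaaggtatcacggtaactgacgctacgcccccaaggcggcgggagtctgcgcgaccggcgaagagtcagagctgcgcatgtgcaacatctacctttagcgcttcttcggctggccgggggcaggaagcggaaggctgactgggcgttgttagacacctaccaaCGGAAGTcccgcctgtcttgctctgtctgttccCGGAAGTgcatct
Cox8a, chr1:213833624-213833873, minus strand: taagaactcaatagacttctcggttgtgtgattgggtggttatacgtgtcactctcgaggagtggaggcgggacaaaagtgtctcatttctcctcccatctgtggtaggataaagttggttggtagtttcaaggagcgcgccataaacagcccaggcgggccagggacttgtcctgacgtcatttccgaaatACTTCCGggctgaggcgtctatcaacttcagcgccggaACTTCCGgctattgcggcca
The capitals are NRF1 cores in Ndufa5 and Ndufa6 and ETS cores in Cox5b and Cox8a, where those of Ndufa6 and Cox8a lie on the other strand. No capital stands in the Ndufab1 window, which holds none of these letters. The genes shown do not stand for the rest. Other leading genes, Ndufa3, Ndufb10, Ndufb2, Ndufs4, Ndufs7, Uqcrc2 and Atp5pb, held none of the cores, while Ndufb8, Ndufb5 and Ndufs8 each held an NRF1 or ETS core. Any of the 3 cores stood in 19 of 47 promoters, 40.4%, against 19.7% for genes on the array. A promoter was found for 47 of the 55 genes, and the entries not found were those of Atp5pd, Cox4i2, Cox6a1, Cox6c, Cox6c-ps1, Ndufa8, Ndufb9 and Uqcr11. The NRF1 core stood in 10 of these 47 promoters, 21.3%, against 12.4% of the 4205 promoters of genes with a single symbol on the array and 7.77% of all 33469 in the table. The ETS core stood in 8, 17.0%, against 7.56% and 5.22%. The YY1 core stood in 1, that of Atp5pf, or 2.13%, against 1.45% and 1.63%. By complex, the NRF1 core was in 6 of 23 promoters of complex I, 1 of 10 of complex IV and 2 of 9 of complex V, and the ETS core in 4, 2 and 1 of them. A match describes these letters only and is not evidence of binding.

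The median index of an array lay between 2208 and 2309 and its largest index between 45594 and 64907. Values of exactly 0 were treated as missing, and their number ran from 8 on the saline array of the nucleus accumbens to 226 on the cocaine array of the prefrontal cortex. Among the genes described here, Ndufa9 and Ndufv2 were at 0 on the prefrontal cocaine array and Uqcrfs1 on the prefrontal saline array, and these values were left out of every fit. The region labels were checked with marker genes. In limma with Benjamini-Hochberg adjustment, 6 of 7 markers of striatal projection neurons were higher in the caudate putamen than in the other regions, with adjusted p = 2.51e-05 for Drd1. Of 5 dopamine neuron markers, Th and Aldh1a1 were higher in the ventral tegmental area, by 1.35 and 1.31 on the log2 scale with limma adjusted p = 0.000131 and 0.00298.

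**Figure D1:**
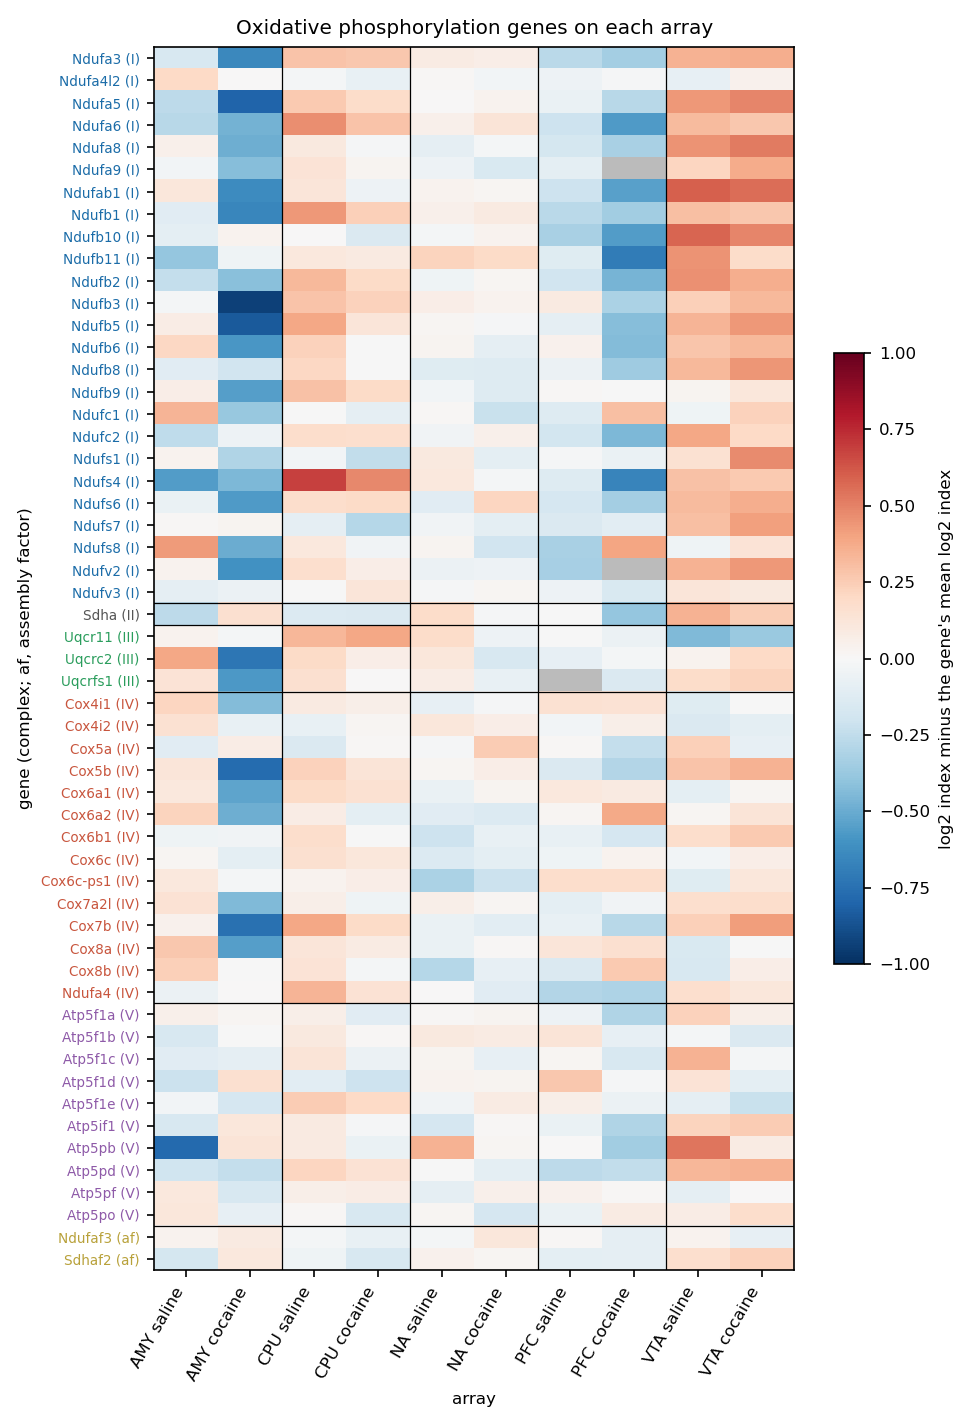
The log2 index of each of the 55 genes on the 10 arrays, minus the gene's own mean log2 index, is plotted by complex (colour scale from -1 to 1, grey for a value listed at 0). Complex I genes are mostly red on the 2 ventral tegmental area arrays and mostly blue on the amygdala cocaine array, where most genes of complex V are near white.

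Set against each gene's own mean over the arrays, the genes of complex I spread over the widest range of array medians. Their median log2 deviation was 0.32 on the saline and 0.34 on the cocaine array of the ventral tegmental area, with 0.18 and 0.10 for the caudate putamen and 0.01 and 0.00 for the nucleus accumbens. It was -0.14 and -0.34 in the prefrontal cortex, and -0.05 and -0.48 in the amygdala. So the ventral tegmental area stood highest on both of its arrays, while the amygdala arrays differed from each other by more than those of any other region. For complex V the same medians stayed between -0.13 and 0.18. For complex IV they lay between -0.07 and 0.15 on the other 9 arrays and at -0.44 on the amygdala cocaine array.

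To ask where in the brain these genes differ, every region was contrasted with the average of its 4 counterparts in a fit that also held treatment. Over any regional difference, limma's F test called 9 of 52 genes, 17.3%, against 9.23% of all probe sets tested. Complex I gave 7 of the 9, Ndufa3, Ndufa5, Ndufa6, Ndufb1, Ndufb10, Ndufb2 and Ndufs4, of 24 tested. The others were Atp5pd, a subunit of the peripheral stalk of the ATP synthase, and Uqcr11, a small subunit of complex III, and 0 of 12 genes of complex IV were called. At an unadjusted p under 0.05 the F test held 24 of 52 genes, among them 3 of complex IV, and 1122 of 5232 probe sets. The count rested on single arrays: it was 33 without the saline and 23 without the cocaine array of the amygdala, 0 without either array of the caudate putamen, 5 without either of the nucleus accumbens, and 1 and 0 without the saline and the cocaine array of the ventral tegmental area.

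The ventral tegmental area held the most calls. There 10 of 52 genes, 19.2%, were higher than in the other regions at a limma adjusted p under 0.05, against 7.82% of all probe sets tested, and 1 was lower, against 3.23%. Of the higher genes, 9 belong to complex I, Ndufa3, Ndufa5, Ndufa6, Ndufa8, Ndufab1, Ndufb10, Ndufb2, Ndufb8 and Ndufs7, and the last is Atp5pd. For Ndufb8, the chosen probe set and another were highest on both ventral tegmental arrays. Dimmer ones were not, at 2994 and 3598 against up to 3908 elsewhere, and at 3335 and 3656 against up to 4165. Among probe sets with a mean index of at least 10000, a level that many of these genes share, 87 of 568 were higher. That share is nearer to the 19.2% of these genes than the 7.82% is. The median difference was 0.40 for complex I, with 23 of 24 genes above 0, then 0.17 for complex V, 0.06 for complex IV and 0.02 over all probe sets tested.

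Ndufab1 encodes the mitochondrial acyl carrier protein, which is also a subunit of complex I. Its index was 21008 and 20539 on the saline and cocaine arrays of the ventral tegmental area, against 15060 and 8977 in the amygdala, 14247 and 14080 in the nucleus accumbens, 15098 and 13414 in the caudate putamen and 12055 and 9529 in the prefrontal cortex. Both ventral tegmental arrays lay above the other 8, with a difference from the other regions of 0.72 ± 0.14 (log2, SE) and a limma adjusted p = 0.0144. Another Ndufab1 probe set was at 9609 and 8615 in the ventral tegmental area, above all other arrays. The dimmest one was at 2744 and 3172 there, within the 2218 to 3549 of the other arrays. Ndufb10, an accessory subunit of the membrane arm, had an index of 8961 and 8418 there, against 5613 and 6161 in the amygdala, 5911 and 6147 in the nucleus accumbens, 6011 and 5412 in the caudate putamen and 4790 and 4073 in the prefrontal cortex. Its difference was 0.67 ± 0.09 with limma adjusted p = 0.00314. The pattern was a high ventral tegmental area, a low prefrontal cortex and little spread among the others.

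The other leading genes of complex I in the ventral tegmental area were Ndufa8, with a mean index of 16663 ± 609 (SD, n = 2) and a difference of 0.60 ± 0.12 (SE), Ndufa5, with 13383 ± 343 and 0.58 ± 0.12, and Ndufb2, with 13450 ± 600.0 and 0.51 ± 0.08. Ndufs7, an iron-sulfur subunit on the path of electrons to ubiquinone, had 8249.9 ± 453 and 0.44 ± 0.08. Each such SD is taken over 1 saline and 1 cocaine array and so includes any difference between them. Outside complex I, Atp5pd was at 13550 and 13677 in the ventral tegmental area and at 8980 to 12475 on the other 8 arrays, a difference of 0.43 ± 0.07. Limma's adjusted p-values for these genes lay between 0.00791 and 0.018. Sdha, the flavoprotein of complex II and also an enzyme of the tricarboxylic acid cycle, was at 7119 and 6660, above all other arrays, but its difference of 0.37 ± 0.14 did not pass the test, with limma adjusted p = 0.155.

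Uqcr11 ran the other way. Its index was 16658 and 17478 in the ventral tegmental area, below every other array, and 28410 and 29521 in the caudate putamen, above every other array, with 21748 to 25746 in the remaining regions. The differences were -0.51 ± 0.08 in the ventral tegmental area and 0.45 ± 0.08 in the caudate putamen (log2, SE), with limma adjusted p = 0.00813 and 0.0249. The other genes of complex III, Uqcrc2 and Uqcrfs1, differed in the ventral tegmental area by 0.14 ± 0.21 and 0.24 ± 0.14 and were not called.

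Over the 49 genes with a value on every array, both ventral tegmental arrays lay above the other 8 for 18, including 11 of 22 genes of complex I and 3 of 12 of complex IV, against 13.2% of all probe sets. The 11 calls of either direction became 23 and 25 without the saline or the cocaine array of the amygdala and 21 without both. The calls became 6 without either array of the caudate putamen or the saline array of the nucleus accumbens, and 0 without either array of the ventral tegmental area, which leaves that region 1 array assumed to vary like the others. With quantile normalization there were 6 higher and 2 lower. Ndufb10, Ndufb2, Ndufs7, Atp5pd and Uqcr11 kept the call in 8 of 10 fits without 1 array and lost it in the ones that leave out a ventral tegmental array. Markers of oligodendrocytes, the myelin-forming cells, moved with this region: 4 of 6 were higher there, and their summed index was 116078 and 130731 against 75974 to 133966 on the other arrays. Dopamine neuron markers summed to 22838 and 29563 there, against 11433 to 18268 elsewhere, where Nr4a2 was at 0 on the cocaine arrays of the amygdala and the prefrontal cortex. The part of either cell type in the result was not tested. In tissue RNA of this kind, more cells of a type and more RNA per cell cannot be told apart.

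**Figure D2:**
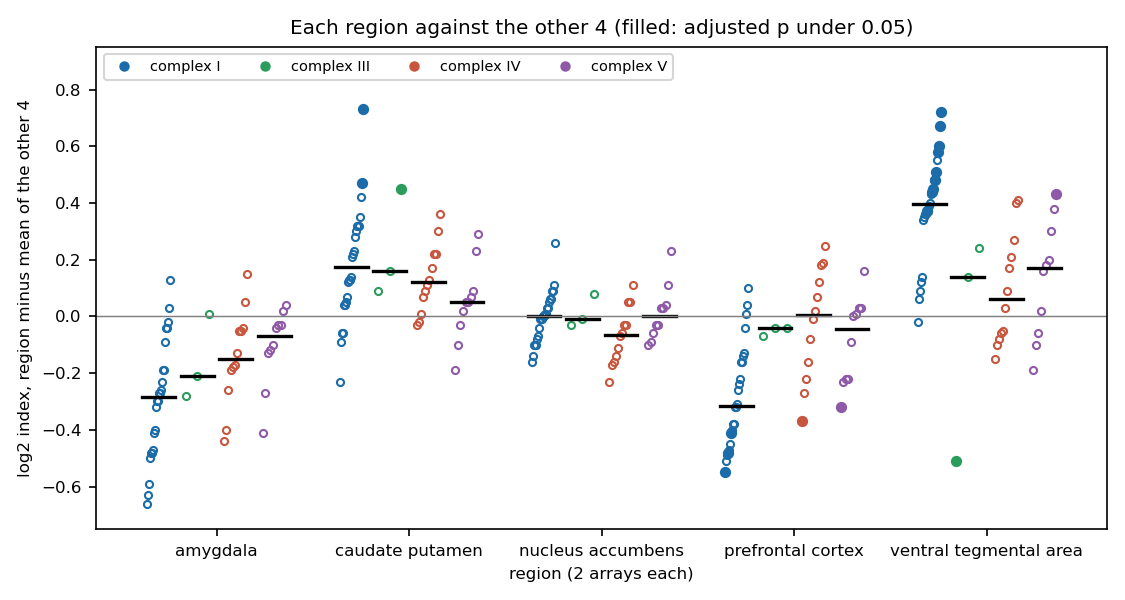
The difference of each region from the mean of the other 4 (log2 index) is plotted for the genes of complexes I, III, IV and V, with 1 point a gene, filled where limma's adjusted p was under 0.05, and a bar at the median. The complex I median lies at 0.40 in the ventral tegmental area, 0.17 in the caudate putamen, -0.28 in the amygdala and -0.32 in the prefrontal cortex.

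In the caudate putamen 3 of 52 genes were higher, Ndufs4, Ndufa6 and Uqcr11, against 1.74% of all probe sets, and 0 were lower, against 2.35%. Among probe sets with a mean index of at least 10000, 22 of 568 were higher. Ndufs4, an accessory subunit of complex I whose loss causes a Leigh-like encephalopathy in mice and humans, was at 7381 and 6415 in the caudate putamen. It was at 5627 and 5506 in the ventral tegmental area, 4955 and 4538 in the nucleus accumbens, 4214 and 2912 in the prefrontal cortex and 3127 and 3363 in the amygdala. The caudate putamen thus stood above all other arrays, by 0.73 ± 0.12 (log2, SE) with limma adjusted p = 0.0125. Ndufa6 was higher by 0.47 ± 0.09, with a mean index of 11318 ± 961 (SD, n = 2). Both arrays lay above the other 8 for 6 of 49 genes, Atp5f1e, Cox6a1, Cox6c, Ndufb9, Ndufs4 and Uqcr11, against 4.7% of all probe sets. Left-out arrays moved the 3 calls to 15 and 6 (amygdala saline and cocaine), 5 (both amygdala arrays), 1 (nucleus accumbens saline, and either ventral tegmental array), 2 (nucleus accumbens cocaine) and 0 (either caudate putamen array). With no filter on low values all 3 calls were lost. Oligodendrocyte markers were high here as well: Mobp and Cnp, 2 of 6, were called higher, by 0.89 and 0.55 on the log2 scale, and the list summed to 133966 and 125936 against 75974 to 130731 on the other arrays. Of 5 choroid plexus markers 1 was called higher, Ttr by 2.15, and 0 were called lower. The others were at 0.56 (Enpp2), 0.01 (Kl), -0.15 (Igfbp2) and -0.97 (Ptgds). Ttr was also called higher in the amygdala, by 3.18. In the caudate putamen 2 of 6 neuronal markers were called lower. The part of these cells in the result was not tested.

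In the prefrontal cortex 5 of 52 genes were lower, 9.62%, against 3.69% of all probe sets, and 0 were higher, against 1.36%. Among probe sets with a mean index of at least 10000, 72 of 568 were lower, so the share of these genes was not above that of probe sets with high values. They were Ndufb10, Ndufa6 and Ndufb2 of complex I, Ndufa4, first assigned to complex I and now to complex IV, and Atp5pd. Ndufb10 was lower by 0.55 on the log2 scale, with a mean index of 4431.3 ± 507 (SD, n = 2). Ndufa4 was at 14386 and 14275 there and at 16344 to 22286 on the other arrays, a difference of -0.37 ± 0.08 with limma adjusted p = 0.0356. Both prefrontal arrays lay below the other 8 for 3 of 49 genes, Atp5pd, Ndufa4 and Ndufb10, against 5.84% of all probe sets, which is near the background. The calls fell to 0 without the prefrontal cocaine array, either caudate putamen array or the nucleus accumbens cocaine array, and to 1 without the nucleus accumbens saline array or either ventral tegmental array. Without the amygdala saline array there were 13 lower and 2 higher, without its cocaine array 16 lower, and without both 20 lower. The calls also fell to 2 with median scaling and to 1 with quantile normalization. Snap25, a neuronal marker, was higher in the prefrontal cortex, while 2 of 6 oligodendrocyte markers were lower and their sum, 82580 and 75974, was below that of every other array. The part of these cells in the result was not tested.

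In the amygdala and the nucleus accumbens 0 of 52 genes were called, where 0.612% and 0.535% of all probe sets were. In the amygdala 22 of 24 complex I genes lay below the other regions, with a median of -0.28, led by Ndufa5 at -0.66 ± 0.12 and Ndufs4 at -0.63 ± 0.12 (log2, SE, limma adjusted p = 0.0663 and 0.0783). Both amygdala arrays lay below the other 8 for 0 of 49 genes, against 1.27%. Over complex I the cocaine array was the lower of the 2, with a median deviation from the gene mean of -0.48 against -0.05 on the saline array. This did not hold for each gene. Ndufa5 was at 8101 on the saline and 5589 on the cocaine array, but Ndufs4 was at 3127 and 3363. In the nucleus accumbens the differences were smaller: the largest were those of Ndufb11 at 0.26 ± 0.15 and Atp5pb, subunit b of the peripheral stalk of the ATP synthase, at 0.23 ± 0.23. At an unadjusted p under 0.05 limma held 14 of 52 genes in the amygdala, all lower, and 0 in the nucleus accumbens, with 462 and 274 of 5232 probe sets.

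**Figure D3:**
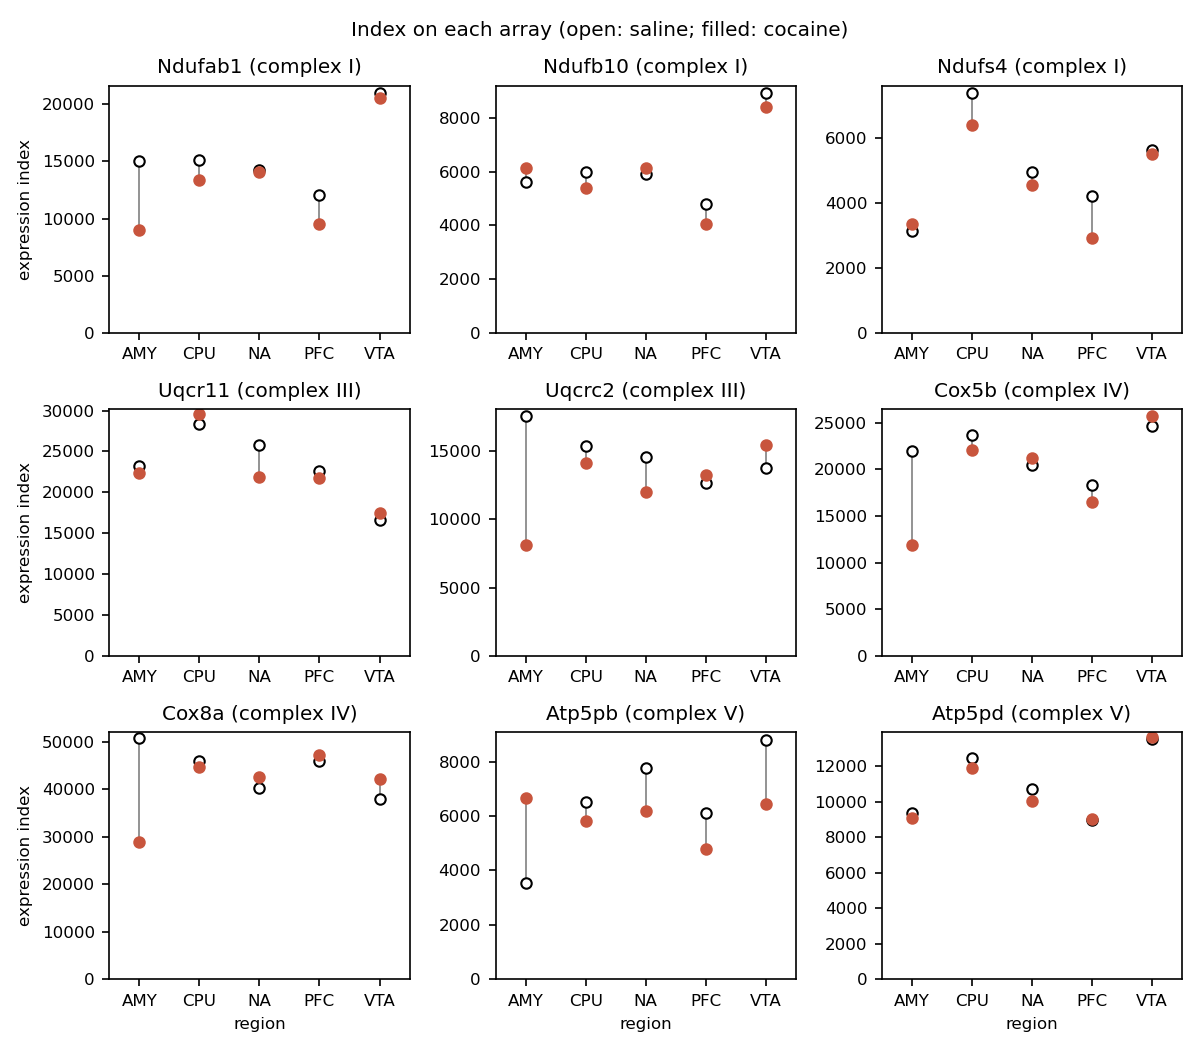
The expression index on each array is plotted for 9 genes named in the text, by region, with open points for saline and filled points for cocaine and each vertical axis starting at 0. Ndufab1 and Ndufb10 are highest in the ventral tegmental area on both arrays, Uqcr11 is lowest there, and Uqcrc2, Cox5b and Cox8a lie far apart on the amygdala arrays, at 17580 and 8125, 22018 and 11876, and 50810 and 28757.

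Cocaine was compared with saline across the 5 regions, with region as a block. No gene of oxidative phosphorylation passed: limma called 0 of 52, and also 0% of the 5244 probe sets tested. At an unadjusted p under 0.05 there were 3 genes, all lower, against 61 lower and 8 higher probe sets in all. They were Ndufb6, an accessory subunit of complex I, at -0.31 ± 0.12 (log2, SE), Ndufab1 at -0.26 ± 0.11 and Atp5f1c, a subunit of the central stalk of the ATP synthase, at -0.17 ± 0.07. Their limma adjusted p was 1.0 each, so none of them is a call.

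The fitted change was below 0 for 47 of 52 genes, 90.4%, with a median of -0.09, against 54.7% and -0.01 over all probe sets tested. Probe sets with high values were mostly lower whatever their gene: among those with a mean index of at least 10000, 82.3% lay below 0, with a median of -0.06. In the highest of 10 equal classes of mean index, 27 of 28 genes described here were below 0 with a median of -0.10, beside 82.3% and -0.05 over that class. By complex the median was -0.12 in complex I, with 23 of 24 below 0, -0.25 in complex III with 3 of 3, -0.09 in complex IV with 10 of 12 and -0.06 in complex V with 9 of 10. Without the amygdala pair the median of all 52 was -0.03 with 39 below 0, and with quantile normalization it was -0.05 with 38 below 0.

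The genes with the lowest fitted changes after Ndufb6 were Ndufb5 at -0.29 ± 0.14 and Ndufb3 at -0.27 ± 0.14 (log2, SE) in complex I, and Uqcrc2, a core protein of complex III, at -0.26 ± 0.17. Uqcrfs1, the Rieske iron-sulfur protein, was at -0.25 ± 0.12 over the regions with both values. In complex IV Cox5b and Cox7b were each at -0.21, with SE of 0.14 and 0.13, and in complex V Atp5f1a, the alpha subunit, was at -0.12 ± 0.06. The highest were Cox8b at 0.09 ± 0.11, Sdhaf2 at 0.04 ± 0.07 and Atp5if1, the inhibitor of the ATP synthase, at 0.03 ± 0.08.

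Only Ndufab1 was lower with cocaine in all 5 regions, 1 of 49 genes, against 1.63% of all probe sets, and 0 were higher in all 5, against 1.45%. Its log2 ratios were -0.75 in the amygdala, -0.34 in the prefrontal cortex, -0.17 in the caudate putamen, -0.03 in the ventral tegmental area and -0.02 in the nucleus accumbens. The last 2 were near 0. These ratios are those of the chosen probe set. Another Ndufab1 probe set was also lower with cocaine in every region, with ratios from -0.43 to -0.02. The dimmest one was not, with a prefrontal ratio of 0.13 and a ventral tegmental ratio of 0.21. Its ratio was -0.68 for the amygdala, -0.08 for the nucleus accumbens and -0.03 for the caudate putamen.

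**Figure D4:**
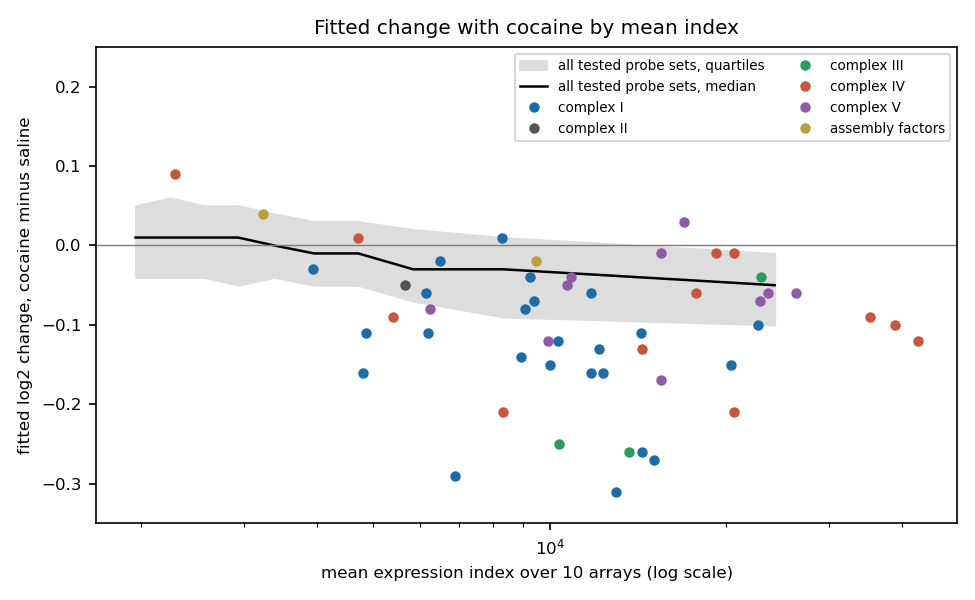
The fitted log2 change with cocaine is plotted against the mean index over 10 arrays (log scale) for the 52 genes, coloured by complex, over the median (line) and quartiles (band) of all tested probe sets in 10 equal classes of mean index. The band itself falls from a median of 0.01 in the lowest class to -0.05 in the highest, and Ndufb6 lies lowest of the 52 genes at -0.31.

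Within a region 1 cocaine array stood against 1 saline array, so these values have no replicate check and no test, and a gene was counted where the fold was at least 1.5. In the amygdala 17 of 52 genes, 32.7%, were at least 1.5-fold lower with cocaine, against 7.47% of all probe sets and 48 of 558 among those with a mean index of at least 10000. They were 8 of 24 genes of complex I, 2 of 3 of complex III, 7 of 12 of complex IV and 0 of 10 of complex V. Those of complex I were Ndufab1, Ndufb3, Ndufb5, Ndufb6, Ndufb9, Ndufc1, Ndufs8 and Ndufv2, those of complex III Uqcrc2 and Uqcrfs1, and those of complex IV Cox4i1, Cox5b, Cox6a1, Cox6a2, Cox7a2l, Cox7b and Cox8a. At least 1.5-fold higher was 1 gene, Atp5pb of complex V, against 1.42%. The medians of the log2 ratio were -0.49 in complex I, -0.71 in complex III, -0.61 in complex IV and 0.00 in complex V, and -0.04 over all probe sets. The difference between complexes was not tested.

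Uqcrc2 had the lowest ratio, with an index of 17580 on the saline and 8125 on the cocaine array of the amygdala, -1.11 on the log2 scale. On the other 8 arrays it lay between 12012 and 15398, so the saline array was the highest of all and the cocaine array the lowest. Cox5b, a subunit on the matrix side of complex IV, went from 22018 to 11876, while the other arrays lay between 16509 and 25757. Here only the cocaine array stood apart.
The subunits Cox8a and Cox4i1 showed the Uqcrc2 pattern. Cox8a had 50810 on the saline and 28757 on the cocaine array, with 37926 to 47202 elsewhere, and Cox4i1 had 44897 and 28678, with 35490 to 42929 elsewhere. Cox7b went from 8367 to 4860 and Cox6a1 from 37702 to 24293. In complex I the lowest ratios were those of Ndufb5, from 7036 to 3722, Ndufs8, from 12024 to 6333, and Ndufb3, from 14500 to 7698. All 3 were below their values on every other array on the cocaine array of the amygdala. Another Ndufb5 probe set did not show this, with 4266 on the saline and 4027 on the cocaine array, a log2 ratio of -0.08.

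In complex V the picture differed gene by gene. Atp5f1b, the catalytic beta subunit, was at 21077 on the saline and 23581 on the cocaine array, Atp5f1a at 10245 and 10028, and Atp5f1d at 9208 and 11908. Atp5pb was at 3549 and 6648, and it was the saline array that stood apart, since the other 8 lay between 4782 and 8810. Sdha of complex II was at 4685 and 6269, a log2 ratio of 0.42. Of 52 genes 36 had a ratio below 0, 69.2%, against 55.0% of all probe sets and 325 of 558 among those with a mean index of at least 10000.

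The amygdala arrays differed in other measures too. The largest index was 63493 on the saline and 48309 on the cocaine array, the ratio of 3′ to 5′ probe sets was 0.921 and 1.69 for hexokinase, and there were 91 and 42 zeros. These hexokinase ratios were the lowest and the highest of the 10 arrays. The same ratio was 1.53 and 1.36 for actin and 1.14 and 1.12 for GAPDH, where the 10 arrays ran from 1.19 to 1.70 and from 1.03 to 1.45. Of 6 neuronal markers 1 was lower with cocaine, with a median of 0.20 and sums of 62670 and 61234. Of 5 tested endothelial and blood markers 5 were lower, with a median of -0.27. Over all 6 measured ones the sums were 53425 and 42386. Of 6 oligodendrocyte markers 5 were lower, the median being -0.14, with sums of 96836 and 86505. The part of these measures in the result was not tested. With the mean of all probe sets of a gene in place of the highest one, 10 genes were at least 1.5-fold lower and 1 higher.

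**Figure D5:**
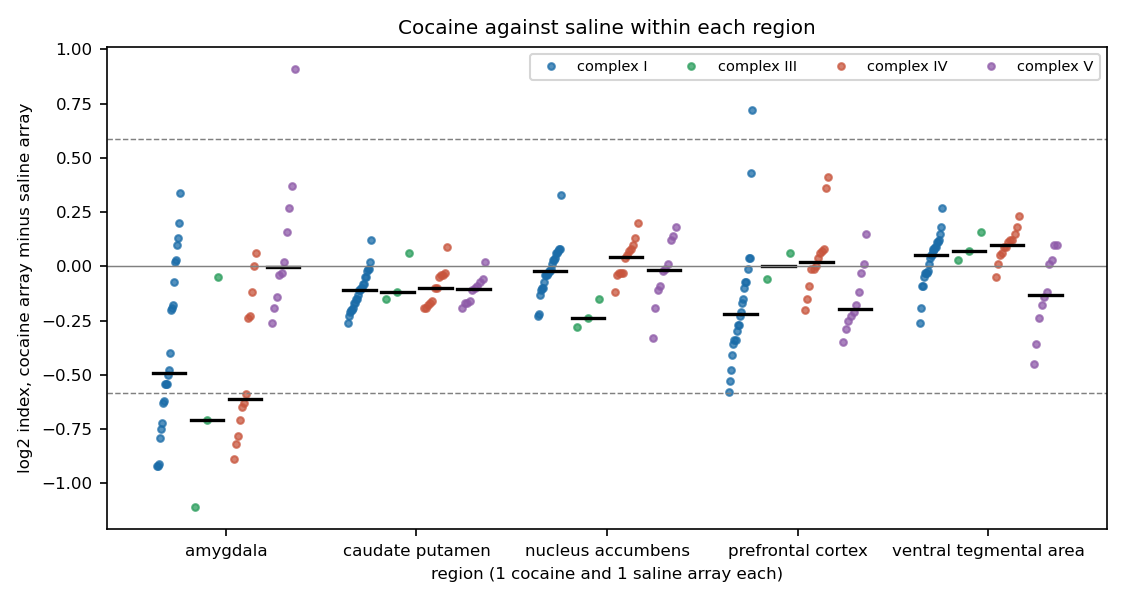
The log2 ratio of the cocaine to the saline array is plotted for each gene of complexes I, III, IV and V by region, with a bar at the median of the complex and dashed lines at 1.5-fold. In the amygdala the medians of complexes I, III and IV lie at -0.49, -0.71 and -0.61 and that of complex V at 0.00, while in the caudate putamen all 4 lie near -0.10.

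In the caudate putamen 47 of 52 genes were lower with cocaine, 90.4%, against 59.2% of all probe sets and 390 of 571 among those with a mean index of at least 10000. The median was -0.10, and 0 genes were past 1.5-fold, as for 0.153% of probe sets. The shift was small and even over complexes, with medians of -0.11 in complex I and -0.10 in complexes IV and V. The lowest ratios were those of Ndufb5 at -0.26, Ndufb6 at -0.23 and Ndufb8 at -0.21, and the highest that of Ndufv3, an accessory subunit at the NADH-binding end of complex I, at 0.12. With quantile normalization 39 of 52 were lower and the median was -0.05. Choroid plexus markers summed to 59020 on the saline and 30253 on the cocaine array, with 4 of 5 ratios below 0, a median of -0.37 and Ttr at -1.61. Their part in the result was not tested.

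In the nucleus accumbens 30 of 52 genes were lower, 57.7%, against 59.4% of all probe sets and 332 of 571 among those with a mean index of at least 10000, with a median of -0.02. The count was 23 with median scaling and 22 with quantile normalization, where the median turned to 0.01. None was past 1.5-fold, as for 0.229% of probe sets. The lowest ratios were those of Atp5pb at -0.33 and Uqcrc2 at -0.28, and the highest that of Ndufs6 at 0.33.

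In the prefrontal cortex 35 of 49 genes were lower, 71.4%, against 48.0% of all probe sets but 436 of 551 among those with a mean index of at least 10000. The medians were -0.22 in complex I, -0.20 in complex V and 0.02 in complex IV. Ndufs8, an iron-sulfur subunit of complex I, was at least 1.5-fold higher, from 7139 to 11733, against 3.2% of probe sets, and 0 genes were at least 1.5-fold lower, against 1.72%. Ndufb11 at -0.58 lay just short of the limit, Ndufs4 was at -0.53 and Ndufb6 at -0.48. With quantile normalization 25 of 49 were lower with a median of -0.01, against 0.0 over all probe sets. With median scaling 43 of 49 were lower with a median of -0.17, against -0.07. The shift thus depended on the scaling and was near 0 with quantile normalization. The cocaine array of this region held 226 zeros, and the hexokinase ratio of 3′ to 5′ probe sets was 1.52 on the saline and 1.05 on the cocaine array. All 6 neuronal markers had a ratio below 0 here, with a median of -0.30 and sums of 74730 and 65588. The 5 tested endothelial and blood markers had a median of 0.28, and all 6 measured ones summed to 58782 and 62796. The part of these measures in the result was not tested.

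In the ventral tegmental area 18 of 52 genes were lower, 34.6%, against 42.4% of all probe sets and 270 of 558 among those with a mean index of at least 10000, with a median of 0.05 and 0 past 1.5-fold, against 1.65%. Complex IV was higher in 11 of 12 genes, with a median of 0.10, and complex V lower in 6 of 10, with a median of -0.13. With median scaling 24 of 52 were lower and the median was 0.00. Atp5pb went from 8810 to 6436, -0.45 on the log2 scale, and Atp5f1c from 19615 to 15268, -0.36. Atp5pb thus had its ratio above 0 in the amygdala and below 0 in the other 4 regions. Cell markers differed in this pair too. Of 5 tested dopamine neuron markers 0 were lower, with a median of 0.48. Over all 6 measured ones the sums were 22838 and 29563. Of 5 endothelial and blood markers 0 were lower, with a median of 0.26. Of 6 oligodendrocyte markers 1 was lower, with a median of 0.20. Their part in the result was not tested.

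A gene with several tested probe sets gives a check on these ratios, and 24 genes had them. In the amygdala the probe sets of 7 genes disagreed in sign, Atp5pf, Atp5po, Cox5b, Ndufs4, Ndufs8, Uqcr11 and Uqcrfs1. Those of 7 lay more than 0.5 apart on the log2 scale, Cox5b, Cox8a and Ndufb5 among them. The other Cox5b probe set had an index of 7452 on the saline and 7784 on the cocaine array of the amygdala, a ratio of 0.06 against -0.89 for the one chosen. The other 3 Cox8a probe sets had ratios of -0.20, -0.35 and -0.36, against -0.82. For Ndufs8, 3 probe sets gave -0.92, -0.99 and -0.77 and the fourth 0.33, and for Uqcrfs1 they gave -0.71, -0.79 and 0.09. In the prefrontal cortex 9 genes disagreed in sign and 4 lay more than 0.5 apart, among them Ndufs8, whose other probe sets had ratios of -0.21, -0.07 and -0.03 beside the 0.72 above. In the caudate putamen, the nucleus accumbens and the ventral tegmental area 0 genes lay that far apart, with 3, 10 and 6 that disagreed in sign. For 10 of the 55 genes the name of the chosen probe set ends in s, which marks probes shared by several transcripts, and for 2 in f, which marks a gene family, so near-identical copies may add to these values.

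Several complex IV subunits have tissue isoforms. Cox4i1 and Cox6a1 are the general forms, while Cox4i2 is known from lung and Cox6a2 and Cox8b from heart and skeletal muscle. Cox4i2 was even across the brain, with 17312 to 21349 over the 10 arrays, and went from 21349 to 18208 with cocaine in the amygdala. Cox6a2 lay between 3803 and 6953 and Cox8b between 1872 and 2726, with their highest values on the prefrontal cocaine array. The Cox7a2l gene, whose product joins complexes III and IV in supercomplexes, went from 15790 to 10524 in the amygdala and lay between 13374 and 16137 elsewhere. Of the assembly factors, Ndufaf3 lay between 8926 and 10245. Sdhaf2, needed to attach flavin to Sdha, was at 3632 and 3781 in the ventral tegmental area and at 2853 to 3472 on the other 8 arrays. Its difference of 0.25 ± 0.09 (log2, SE) was not called, with limma adjusted p = 0.153, and was called without the amygdala cocaine array. Their fitted changes with cocaine were -0.02 ± 0.06 and 0.04 ± 0.07 (log2, SE).

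Genes of neighbouring pathways were read from lists, and 0 of them passed limma's test for cocaine across the regions. In the amygdala, where genes of complexes I, III and IV were low on the cocaine array, 3 of 13 genes of the tricarboxylic acid cycle and pyruvate dehydrogenase had a ratio below 0, with a median of 0.10, as in Dlat at 0.47, Dlst at 0.41 and Cs, citrate synthase, at 0.28. Glycolysis was below 0 in 4 of 12 genes, with a median of 0.04, and mitochondrial ATP and ion transport in 4 of 9, with a median of 0.00. Cyc1, the cytochrome c1 of complex III that the symbol rule leaves out, went from 16578 to 11498, a ratio of -0.53. The mitochondrially encoded subunits COX1 and COX2 had ratios of -0.39 and -0.34, and COX3 was listed at 0 on the cocaine array. Of 7 mitochondrial antioxidant and chaperone genes 3 were below 0, with a median of 0.06, from Gpx4, a peroxidase for lipid peroxides, at -1.08 to Phb2 at 0.23. Of 3 regulators of mitochondrial genes 2 were below 0, Ppard at -0.71 and Thra at -0.59, and Esrra was at 0.15.

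The same lists were read by region, beside the 7.82% of all probe sets and 87 of 568 probe sets with high values that were higher in the ventral tegmental area, and the 3.23% that were lower. There 3 of 7 mitochondrial antioxidant and chaperone genes were higher, Hspd1 by 0.65, Sod2 by 0.55 and Hspe1 by 0.41 on the log2 scale, with 0 lower. Of 14 genes of the tricarboxylic acid cycle and pyruvate dehydrogenase, 2 were higher, Suclg1 by 0.38 and Idh3g by 0.36, and 1 was lower, the phosphatase gene Pdp1 by -0.40, so that the share of higher genes was near that of probe sets with high values. Of 9 genes of mitochondrial ATP and ion transport 1 was higher, the ADP and ATP carrier gene Slc25a4, by 0.41, while 0 of 12 glycolysis genes were called. In the prefrontal cortex, where 3.69% of all probe sets were lower, Hspd1 and Hspe1 were lower, by -0.57 and -0.48. These calls are limma adjusted p under 0.05 over all probe sets tested.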

How the data were processed

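Per the labels, the authors summarised every array as the expression index of dChip, a linear intensity. The sources used here name neither its version and model nor how arrays were scaled. Each of the 10 samples was assigned to its region and treatment by its title. Of 8799 probe sets, 59 control probe sets were left out, zeros were treated as missing, a floor was set at the 20th percentile of the nonzero values (1028.4), and log2 was taken. The upper 60% by mean index (at least 1824.4), 5244 probe sets, were fitted with limma 3.58.1 in R 4.3.3 on treatment and region, with an intensity trend and 4 residual degrees of freedom. Benjamini-Hochberg adjustment ran over all of them, with calls at an adjusted p under 0.05. The fit was run on simulated data with shifts larger than any fitted for these genes and equal noise for every probe set. That run checks the sign and size of the estimates and not the calls made here. Gene names came from the platform annotation of the probe sets, and 6 probe sets with several symbols that include such genes were left out. Promoters were matched by symbol.

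Precision is limited by the number of arrays. The members and gene lists were chosen with earlier results of these data known. Genes were named by rule: in each complex the 3 lowest and 2 highest fitted changes with cocaine, genes of one sign in all regions, up to 5 called genes a direction and region, the 3 highest and 3 lowest ratios of a region, tissue isoforms, assembly factors and genes whose probe sets disagree. Other genes were named after their values were seen. Alternatives were the scaling, the floor, the filter, the treatment of zeros, the trend, the choice of probe set and leaving out each array or region pair. Leaving out both amygdala arrays from the regional comparisons was added after seeing the data.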

Additional observations from a re-analysis of the deposited data

Results flagged for a closer look

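Of the 5 regional log2 ratios of cocaine to saline, that of the amygdala lay far from the other 4 for several results, by Dixon's criterion at its 95% critical value. These were the median over complex IV, at -0.61 in the amygdala, and the ratios of Cox5b at -0.89, Cox8a at -0.82, Cox4i1 at -0.65, Cox6a1 at -0.63 and Cox7a2l at -0.59 in complex IV and Ndufb9 at -0.62 and Ndufa3 at -0.48 in complex I, all lower with cocaine. Atp5pb of complex V was set apart the other way, at 0.91. Chance sets apart about 1 in 20 such groups. Over all tested probe sets the amygdala was the one set apart for 189, or 3.6%, and for 8 of the 52 genes of oxidative phosphorylation, while the prefrontal cortex was for 52 probe sets, the ventral tegmental area for 40, the caudate putamen for 18 and the nucleus accumbens for 17, each with 0 of the 52 genes.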

How the results depend on the processing

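The cocaine comparison has region as a block, which pairs the saline and the cocaine array of each region. The labels give no replicate numbers, so no pairing beyond region was possible. Cocaine called 0 genes under every alternative run. Leaving out 1 array each moved the regional calls between 0 and 33 for any difference, 0 and 21 in the amygdala, 0 and 15 in the caudate putamen, 0 and 25 in the ventral tegmental area and 0 and 16 in the prefrontal cortex. Without both amygdala arrays they were 23, 5 in the caudate putamen, 21 in the ventral tegmental area and 20 in the prefrontal cortex. With zeros raised to the floor, any difference gave 5 and the prefrontal cortex 1. With no filter, which tests more probe sets, any difference gave 3, the amygdala 1, the nucleus accumbens 1, the caudate putamen 2, the prefrontal cortex 2 and the ventral tegmental area 6. Each of these counts includes Cox6c-ps1, the only call in the amygdala and the nucleus accumbens, whose values were at the floor on every array but those of the prefrontal cortex, so the floor sets its spread. Of the 3 genes called in the caudate putamen with the filter, 0 were called without it. The prefrontal cortex gave 2 with median scaling and 1 with quantile normalization. Counting a gene by any of its probe sets gave 1 in the amygdala and 17 in the ventral tegmental area. Genes past 1.5-fold numbered 11 in the amygdala with the mean of all probe sets. In the prefrontal cortex they numbered 3 with median scaling, 3 with quantile normalization, 4 with zeros raised and 0 with the mean of all probe sets.

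Fitted cocaine changes that turned sign were all small except that of Uqcrfs1, at 0.44 with zeros raised to the floor, since its prefrontal saline value was 0. Quantile normalization gave Ndufs7 0.0005, Uqcr11 0.0056 and Atp5pf 0.048. Without 1 region pair the change ran from -0.053 to 0.024 for Ndufs7, -0.014 to 0.042 for Ndufv3, -0.17 to 0.032 for Sdha, -0.073 to 0.0039 for Uqcr11, -0.013 to 0.038 for Cox6c, -0.32 to 0.015 for Atp5pb, -0.046 to 0.053 for Atp5pf and -0.032 to 0.095 for Atp5if1. The cause of the other changes was not tested.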
